A study of Homo sapiens with 15 samples.

Results

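Libraries of RPMI-8226 cells taken after 6 h of treatment with 100 nM KB528 were compared with libraries taken after 3 h of the same treatment. RPMI-8226 is a line derived from human multiple myeloma, a cancer of plasma cells, and was kept in serum-supplemented RPMI medium. The labels name KB528 as an inhibitor of the lysine acetyltransferase (KAT) activity of p300. The comparison uses 6 of the 15 libraries of the series, namely 3 at 6 h and 3 at 3 h. The other 9 (3 each at 1 h and 24 h of KB528 and 3 with DMSO at 0 h) give only the setting in time. The sample titles and design text name the 3 at 0 h as DMSO, while the headers of the deposited values call them no treatment. All gene rows other than the ERCC spike-ins with a mean of at least 1 TPM (a length-adjusted share of all transcripts in a library) over the 15 libraries were tested, 12002 of 26364. The contrast asks what changed between the third and the sixth hour of exposure. DMSO was analysed at 1 time, so time in culture and length of exposure cannot be told apart. Whether replicate libraries stem from independent cultures is not stated in the labels, and the p-values therefore reflect library-to-library spread, possibly technical.

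The coactivator p300 and its paralogue CBP, encoded by EP300 and CREBBP, acetylate histones and transcription factors at enhancers and promoters. IRF4 is the transcription factor on which plasma cells and myeloma cells depend, and it works with PRDM1, XBP1 and the Ikaros factors to set the plasma cell program.

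Libraries of one group correlated with each other with r between 0.995 and 0.9977 across genes, and libraries of different groups with r between 0.9818 and 0.9854. Between 11684 and 11796 genes had at least 1 TPM at 6 h, and between 11616 and 11793 at 3 h. TPM values keep no depth, but steps in the low values showed that 1 read per 1000 bases of transcript was worth 0.0315 to 0.0413 TPM at 6 h and 0.0328 to 0.0353 TPM at 3 h. The spike-ins took 9.35% to 14.5% of the TPM of a library at 6 h and 13.7% to 16.6% at 3 h, and small RNA genes took 1.13% to 1.26% at 6 h and 1.54% to 1.56% at 3 h. The summed level of 8 plasma cell markers was 6116 to 6305 TPM at 6 h and 6891 to 7539 TPM at 3 h, and each of the 8 was expressed.

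Between 3 h and 6 h, 6371 of the 12002 genes (53.1%) changed at an adjusted p under 0.05 in limma. Of these, 4787 (39.9%) were higher at 6 h and 1584 (13.2%) were lower. The changes were mostly small. Only 140 genes (1.17%) were at least 2-fold higher and 105 (0.875%) at least 2-fold lower, where fold changes are differences in log2(TPM + 1). For 60.7% of genes the 3 libraries at 6 h did not overlap the 3 at 3 h, and this held for 98.0% of the called genes. Over all tested genes the log2 fold change had a median of 0.115 and quartiles of -0.058 and 0.299. In bulk RNA, fewer cells that carry a message and less of it per cell cannot be told apart.

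How many genes came out higher or lower moved with the scaling. Of the called genes 75.1% were higher with the deposited values. Median-ratio scaling shifted the comparison by -0.16 on the log2 scale and left 45.9% of calls higher (2844 higher and 3359 lower). Correction for transcript length gave 50.7% higher (3145 higher and 3053 lower). Leaving the spike-ins out of the total gave 65.1% (3807 higher and 2039 lower), and leaving out small RNA genes as well gave 65.3% (3806 higher and 2021 lower). Scaling to the spike-ins shifted the comparison by 0.41 and gave 96.6% higher (4417 higher and 157 lower). The spike-in factors themselves had an SD of 0.315 among the libraries at 6 h and 0.150 at 3 h. No gene called higher as deposited was called lower under any of these scalings, and 1 gene called lower was called higher after the length correction. Gene groups are therefore given beside the median of all genes, 0.115 as deposited, -0.029 with median-ratio scaling and 0.49 with spike-in scaling.

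**Figure D1:**
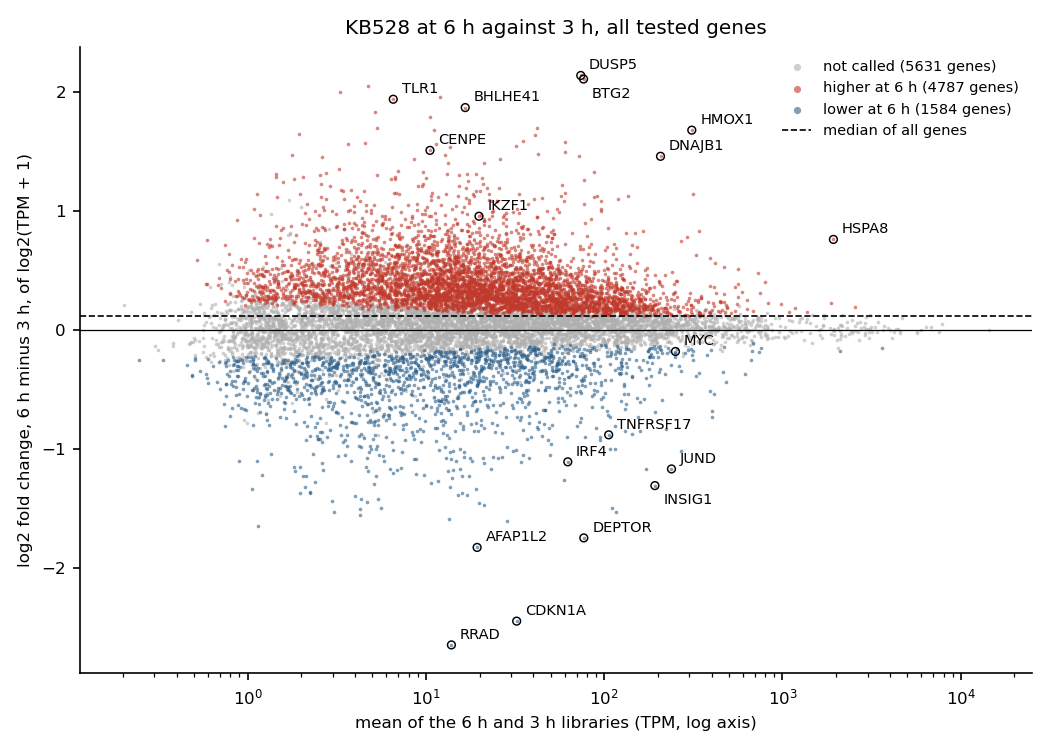
Log2 fold change of each tested gene, 6 h minus 3 h (y axis, difference in log2(TPM + 1)), against its mean level over the 6 libraries (x axis, TPM, log axis); red points are the 4787 genes higher at 6 h, blue points the 1584 lower, grey points the rest, and the dashed line is the median of all genes at 0.115. Most changes lie within 1 log2 unit, while RRAD and CDKN1A lie below -2 and DUSP5 and BTG2 above 2.

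IRF4 fell the most of the 15 regulators. IRF4 had 37.8, 37.3 and 42.5 TPM at 6 h, against 86.9, 78.3 and 92.0 TPM at 3 h, so that every library at 6 h lay below every library at 3 h. This is a 2.19-fold lower level of TPM (log2 fold change -1.11, SE 0.073, adjusted p = 4.645e-06, limma), and the call held under all 18 alternatives, with values between -1.30 and -0.70. Over the course IRF4 averaged 91.6 ± 10.5 TPM with DMSO, 106 ± 1.68 TPM at 1 h, 85.8 ± 6.90 TPM at 3 h, 39.2 ± 2.90 TPM at 6 h and 62.2 ± 1.88 TPM at 24 h (SD, n = 3 each). The mean at 6 h was the lowest of the 5 groups.

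Other plasma cell and B cell genes moved both ways in the same window. Of 15 regulators chosen with IRF4, 5 were higher and 8 lower at 6 h, beside 39.9% and 13.2% of all genes. TNFRSF17, which encodes the surface receptor BCMA, had 74.6, 73.6 and 73.7 TPM at 6 h, against 132, 154 and 127 TPM at 3 h (log2 fold change -0.88, SE 0.069, adjusted p = 1.33e-05). POU2AF1, a B cell coactivator, averaged 38.6 ± 2.73 TPM at 6 h and 59.3 ± 5.45 TPM at 3 h (-0.60), and SDC1, which encodes the plasma cell surface proteoglycan CD138, averaged 98.2 ± 4.50 and 149 ± 9.19 TPM (-0.60) in the same order. HEXIM1, an inhibitor of the elongation factor P-TEFb, averaged 59.4 TPM at 6 h and 83.1 TPM at 3 h (-0.48), both above its DMSO mean of 16.9 TPM. XBP1, a factor of the secretory program, fell by 0.37 and CCND2, a G1 cyclin, by 0.27. XBP1 averaged 545 TPM with DMSO, 697 TPM at 3 h and 538 TPM at 6 h. CCND2 averaged 153.5, 189 and 157 TPM in the same order, so both were near their DMSO means at 6 h. Under spike-in scaling the calls of TNFRSF17, POU2AF1, SDC1 and HEXIM1 were lost and the values of XBP1 and CCND2 turned positive.

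Of the same regulators, 5 were higher. PRDM1, which encodes the plasma cell repressor BLIMP1, averaged 28.1 ± 2.03 TPM at 6 h and 14.4 TPM at 3 h (log2 fold change 0.92, SE 0.084, adjusted p = 3.22e-05). IKZF1, which encodes Ikaros, had 25.2, 25.8 and 28.6 TPM at 6 h, against 13.5, 11.8 and 14.4 TPM at 3 h (0.96, SE 0.082, adjusted p = 2.06e-05). In both genes the groups were well apart, and the level at 6 h was near that of DMSO, 26.7 ± 5.01 TPM for PRDM1 and 29.1 ± 3.95 TPM for IKZF1. MEF2C, a transcription factor of B cells, averaged 20.8 ± 0.384 TPM at 6 h and 13.7 ± 0.569 TPM at 3 h (0.57). The genes of the targeted enzyme and its paralogue rose too. EP300 had 44.8, 46.8 and 53.8 TPM at 6 h, against 29.2, 23.3 and 35.6 TPM at 3 h (0.72, SE 0.13, adjusted p = 0.0015), and CREBBP averaged 41.8 ± 3.03 and 23.6 ± 4.96 TPM in the same order (0.82). The calls of these 5 genes held under all 18 alternatives.

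MYC, MAF and IKZF3 differed little between the 2 times. MYC, a growth regulator, had 221, 235 and 250 TPM at 6 h, against 269, 251 and 280 TPM at 3 h (-0.18, SE 0.060, adjusted p = 0.0288). The libraries just miss each other, and the call was lost without 6 h replicate 1 or 2 or 3 h replicate 1 or 3, without a filter and without the variance trend, and the value was 0.23 with spike-in scaling. MAF averaged 179 ± 12.2 TPM at 6 h and 185 ± 17.1 TPM at 3 h (-0.050, adjusted p = 0.598), and IKZF3, which encodes Aiolos, 5.58 ± 0.246 and 6.09 ± 0.528 TPM in the same order (-0.10, adjusted p = 0.278). MAF and IKZF3 were called lower only under median-ratio scaling and the length correction.

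**Figure D2:**
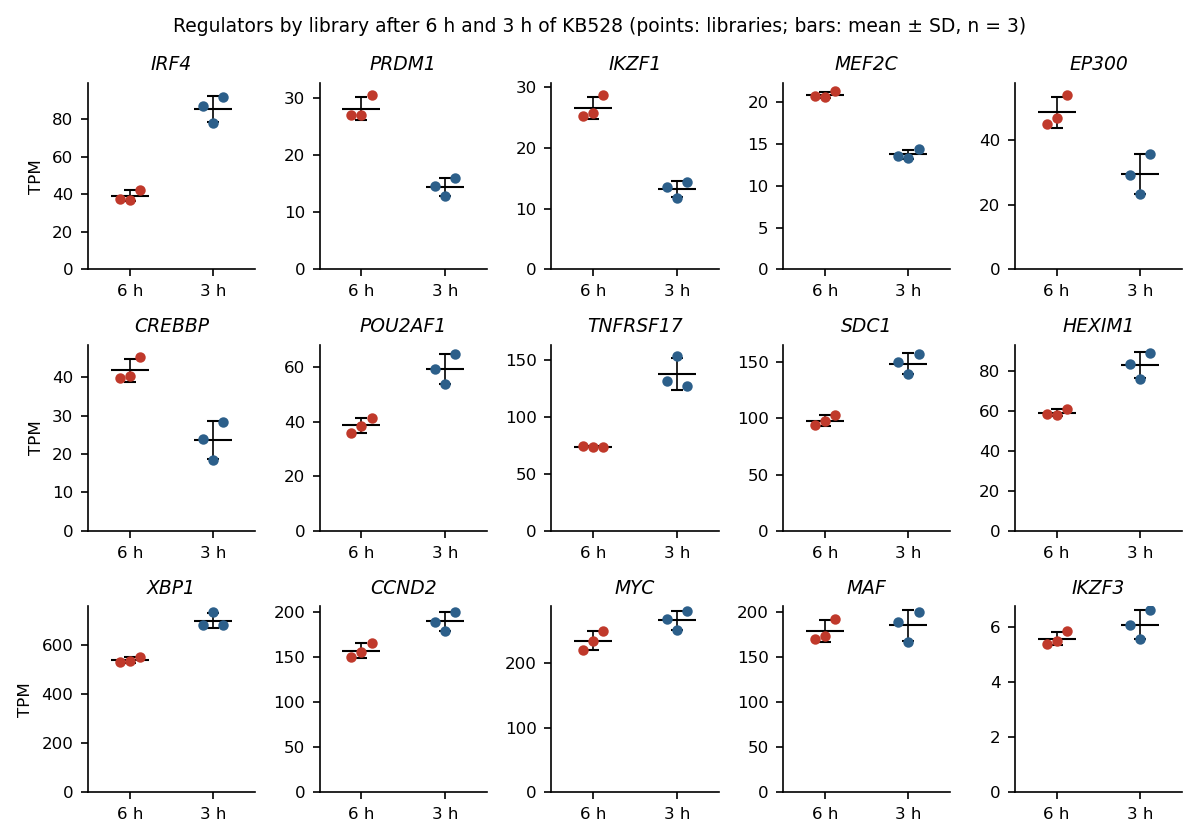
TPM (y axis, from 0) of the 15 regulators in each of the 3 libraries at 6 h (red, left) and at 3 h (blue, right), with mean ± SD. The 2 groups are apart for 13 of the 15 genes and overlap for MAF and IKZF3.

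Genes of mitosis and the G2 phase rose together. Of 58 tested members of a list of mitotic cyclins, kinases, kinesins and kinetochore genes, 57 were higher at 6 h (39.9% of all genes were) and 0 were lower in limma, also at an unadjusted p under 0.05. MAD2L1 alone was not called, at 105 ± 0.896 TPM at 6 h and 98.9 ± 10.3 TPM at 3 h (0.095, adjusted p = 0.274). The median log2 fold change was 0.76, against 0.115 for all genes, and it was 0.60 with median-ratio scaling, 0.62 after the length correction and 1.17 with spike-in scaling. From 53 to 56 members were called higher under these 3 scalings and 13 were at least 2-fold higher as deposited.

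CENPE, a kinetochore motor, had 16.4, 15.1 and 16.8 TPM at 6 h, against 5.05, 4.73 and 5.17 TPM at 3 h (log2 fold change 1.51, SE 0.068, adjusted p = 6.25e-07). ANLN, which encodes the cytokinesis protein anillin, averaged 38.5 ± 1.79 TPM at 6 h and 13.6 ± 0.342 TPM at 3 h (1.44, SE 0.057, adjusted p = 3.54e-07). Every library at 6 h lay far above every library at 3 h for both genes. NDC80, a kinetochore subunit, averaged 120 TPM at 6 h and 54.8 TPM at 3 h (1.12), and TOP2A, which encodes topoisomerase II alpha, averaged 129 and 62.8 TPM in the same order (1.02). The mitotic kinase gene PLK1 averaged 435 ± 32.1 TPM at 6 h and 197 ± 15.8 TPM at 3 h (1.14), and the anaphase activator CDC20 435 ± 19.2 and 244 ± 7.86 TPM (0.83). The list median relative to DMSO took values of -0.063, -0.18, 0.65 and 0.51 over the 1, 3, 6 and 24 h samplings. Genes of DNA replication and the G1/S transition moved less, where 39.9% of all genes were higher and 13.2% lower. Of 55 tested members 35 were higher and 4 lower, with a median of 0.19. Without 3 h replicate 1, 23 were higher, and without 6 h replicate 1 or 2, 2 were lower. E2F8, a repressor of the E2F family, rose by 0.90 and the helicase gene MCM5 by 0.51, while CCNE1, a G1/S cyclin, fell by 0.36 and the replication licensing gene CDC6 by 0.25. With median-ratio scaling 13 were higher and 12 lower, beside 2844 and 3359 of all 12002 genes, so the share higher was near that of all genes. The values of CCNE1 and CDC6 turned positive with spike-in scaling.

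Many mitotic promoters are known to carry the cell cycle homology element (CHR), TTTGAA, which is read by the DREAM and MuvB complexes. The letters TTTGAA or TTCAAA, so on both strands, were found in 34 of 50 promoters of the list held in RefSeq (68%), 9.43% of 9273 promoters of tested genes and 15.4% of all 27305 promoters of this length. The 34 with the letters had a median log2 fold change of 0.82 (33 higher) and the 16 without 0.64 (16 higher). Promoters of 3 members described above are printed because they show these letters in strong risers, from 250 bases before to 50 after the gene start (RefSeq, GRCh38.p14), with TTTGAA and TTCAAA in capitals: ANLN at chr7:36389612-36389911 on the + strand, NDC80 at chr18:2571307-2571606 on the + strand and TOP2A at chr17:40417847-40418146 on the - strand. A match is not a bound site.
ANLN: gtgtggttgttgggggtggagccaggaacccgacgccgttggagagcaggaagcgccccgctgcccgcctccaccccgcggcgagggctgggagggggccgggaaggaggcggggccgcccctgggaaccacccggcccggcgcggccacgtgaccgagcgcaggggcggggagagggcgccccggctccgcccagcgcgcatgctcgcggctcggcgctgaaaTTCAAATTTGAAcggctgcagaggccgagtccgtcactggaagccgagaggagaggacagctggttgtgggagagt
NDC80: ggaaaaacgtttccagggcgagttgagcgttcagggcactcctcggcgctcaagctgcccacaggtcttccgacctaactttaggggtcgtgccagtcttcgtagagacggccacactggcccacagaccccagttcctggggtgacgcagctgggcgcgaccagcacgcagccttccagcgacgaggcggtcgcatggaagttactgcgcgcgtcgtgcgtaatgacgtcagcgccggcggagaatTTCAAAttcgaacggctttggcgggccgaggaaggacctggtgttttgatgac
TOP2A: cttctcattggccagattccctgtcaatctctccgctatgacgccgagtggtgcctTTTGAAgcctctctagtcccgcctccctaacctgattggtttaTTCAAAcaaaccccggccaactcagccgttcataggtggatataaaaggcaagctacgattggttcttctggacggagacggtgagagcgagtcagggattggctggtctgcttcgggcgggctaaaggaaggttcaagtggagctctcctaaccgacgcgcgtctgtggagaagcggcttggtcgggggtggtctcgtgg

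Heat shock chaperones rose as a second group. Of 29 tested members, 25 were higher at 6 h (39.9% of all genes were) and 1 was lower (13.2% of all genes were), with a median of 0.48. Median-ratio scaling gave 18 higher and 2 lower (median 0.32) and spike-in scaling 20 and 0 (median 0.84). DNAJB1, a co-chaperone of HSP70, had 289, 302 and 319 TPM at 6 h, against 109, 108 and 113 TPM at 3 h (log2 fold change 1.46, SE 0.051, adjusted p = 1.89e-07). BAG3, another co-chaperone, had 85.2, 88.1 and 98.6 TPM at 6 h, against 29.5, 28.2 and 31.4 TPM at 3 h (1.58, SE 0.067, adjusted p = 4.87e-07). The levels at 3 h were close to or below those of DMSO, 118 TPM for DNAJB1 and 45.6 TPM for BAG3, and the levels at 6 h were the highest of the 5 groups. HSPH1, a nucleotide exchange factor of HSP70, rose by 1.08 and CHORDC1, a co-chaperone of HSP90, by 1.00. HSPA1B and HSPA1A, the inducible HSP70 genes, rose by 1.59 and 1.45, but they are near-identical copies whose reads are uncertain. HSPA8, the constitutive HSP70, was among the 5 most abundant genes that rose, with 2376, 2410 and 2489 TPM at 6 h, against 1416, 1493 and 1384 TPM at 3 h (0.76, SE 0.049, adjusted p = 3.86e-06). The small heat shock gene HSPB1 averaged 717 TPM at 6 h and 795 TPM at 3 h (-0.15, adjusted p = 0.033), a call lost without 6 h replicate 1 or 2 or 3 h replicate 1 or 3, while the factor gene HSF1 was at -0.053 and not called. The list stood at a median of -0.041, -0.11, 0.34 and 0.069 relative to DMSO at 1, 3, 6 and 24 h.

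The factor HSF1 binds alternating GAA and TTC units. GAANNTTC overlapping TTCNNGAA, in either order and on both strands, stood in 6 of 27 promoters of the list (22.2%), in 0.345% of the promoters of tested genes (32) and in 0.487% of all promoters of this length. The 6 were those of HSPA6, HSPA8, DNAJA1, DNAJB6, CHORDC1 and SERPINH1, with a median of 0.85 and all higher at 6 h. The 21 without had a median of 0.32 (18 higher), but they held the 4 largest risers of the list, HSPA1B, BAG3, DNAJB1 and HSPA1A. The following 3 promoters are shown for these units, which are in capitals (RefSeq, GRCh38.p14): CHORDC1 at chr11:90223000-90223299 on the - strand, HSPA6 at chr1:161524290-161524589 on the + strand and HSPA8 at chr11:123062087-123062386 on the - strand. HSPA6, a strictly inducible HSP70, averaged 4.38 ± 0.361 TPM at 6 h and 1.16 ± 0.108 TPM at 3 h.
CHORDC1: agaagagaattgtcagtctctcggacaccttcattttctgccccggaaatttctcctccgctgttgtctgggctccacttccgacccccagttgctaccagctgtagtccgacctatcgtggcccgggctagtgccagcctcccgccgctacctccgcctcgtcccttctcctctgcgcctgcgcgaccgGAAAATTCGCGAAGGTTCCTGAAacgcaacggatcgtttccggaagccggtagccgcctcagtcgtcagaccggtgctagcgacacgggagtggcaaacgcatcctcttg
HSPA6: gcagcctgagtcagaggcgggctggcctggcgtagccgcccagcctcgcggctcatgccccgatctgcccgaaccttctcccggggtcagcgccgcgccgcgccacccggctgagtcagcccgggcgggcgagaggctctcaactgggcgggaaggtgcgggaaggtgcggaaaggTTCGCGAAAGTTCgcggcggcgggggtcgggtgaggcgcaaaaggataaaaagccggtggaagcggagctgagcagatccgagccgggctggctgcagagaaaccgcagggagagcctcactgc
HSPA8: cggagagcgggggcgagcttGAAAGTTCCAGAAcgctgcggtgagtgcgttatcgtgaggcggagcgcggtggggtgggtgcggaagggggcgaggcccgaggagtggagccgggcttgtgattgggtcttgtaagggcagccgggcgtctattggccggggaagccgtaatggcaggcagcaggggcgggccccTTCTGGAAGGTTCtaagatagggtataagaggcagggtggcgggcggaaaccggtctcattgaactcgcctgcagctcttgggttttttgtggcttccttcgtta

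Among genes of oxidative stress and protein disposal, the NRF2 list was near the background as deposited and the autophagy and proteasome lists were above it. For the proteasome list the share higher was near the background with median-ratio and spike-in scaling. HMOX1, which encodes heme oxygenase 1, had 448, 474 and 496 TPM at 6 h, against 149, 142 and 150 TPM at 3 h (log2 fold change 1.68, SE 0.051, adjusted p = 8.78e-08). Its level at 3 h was that of DMSO, 151 ± 9.08 TPM, and at 24 h it was higher again, 569 ± 11.1 TPM. Of 30 NRF2 antioxidant genes, 12 were higher and 3 lower with a median of 0.13, near the 39.9% higher and the median of 0.115 of all genes. Median-ratio scaling gave 7 higher and 8 lower. GCLM, a subunit of the glutathione synthesis enzyme, rose by 0.82 and the small MAF gene MAFG by 0.86, while SLC7A11, a cystine transporter, fell by 0.43. Without 6 h replicate 2 or 3 h replicate 1, 7 of the NRF2 genes were higher, the call of SLC7A11 was lost with spike-in scaling, and the list had 7 higher and 8 lower with median-ratio scaling. Of 45 autophagy and lysosome genes, 34 were higher (39.9% of all genes were) and 2 lower, with a median of 0.26. Median-ratio scaling gave 16 higher and 5 lower (median 0.11), and the length correction 19 and 5. The 2 lower calls were lost without 6 h replicate 1 or 2 or 3 h replicate 1 or 3. SQSTM1, which encodes the autophagy receptor p62, had 608, 641 and 666 TPM at 6 h, against 482, 486 and 494 TPM at 3 h (0.39), and GABARAPL1, of the ATG8 family, rose by 1.21. Of 37 proteasome subunits, 22 were higher (14 without 3 h replicate 1) and 2 lower (0 without 6 h replicate 1, and 1 without each of 6 h replicates 2 and 3 and 3 h replicates 1 and 2), with a median of 0.17 that was 0.014 with median-ratio scaling, where 9 were higher and 5 lower. With median-ratio scaling 2844 of all 12002 genes were higher, a share near that of the 9 of 37 subunits. With spike-in scaling 14 of the 37 were higher, beside 4417 of all 12002 genes. PSMC6, a base ATPase, rose by 0.48 and the lid subunit PSMD11 by 0.35.

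**Figure D3:**
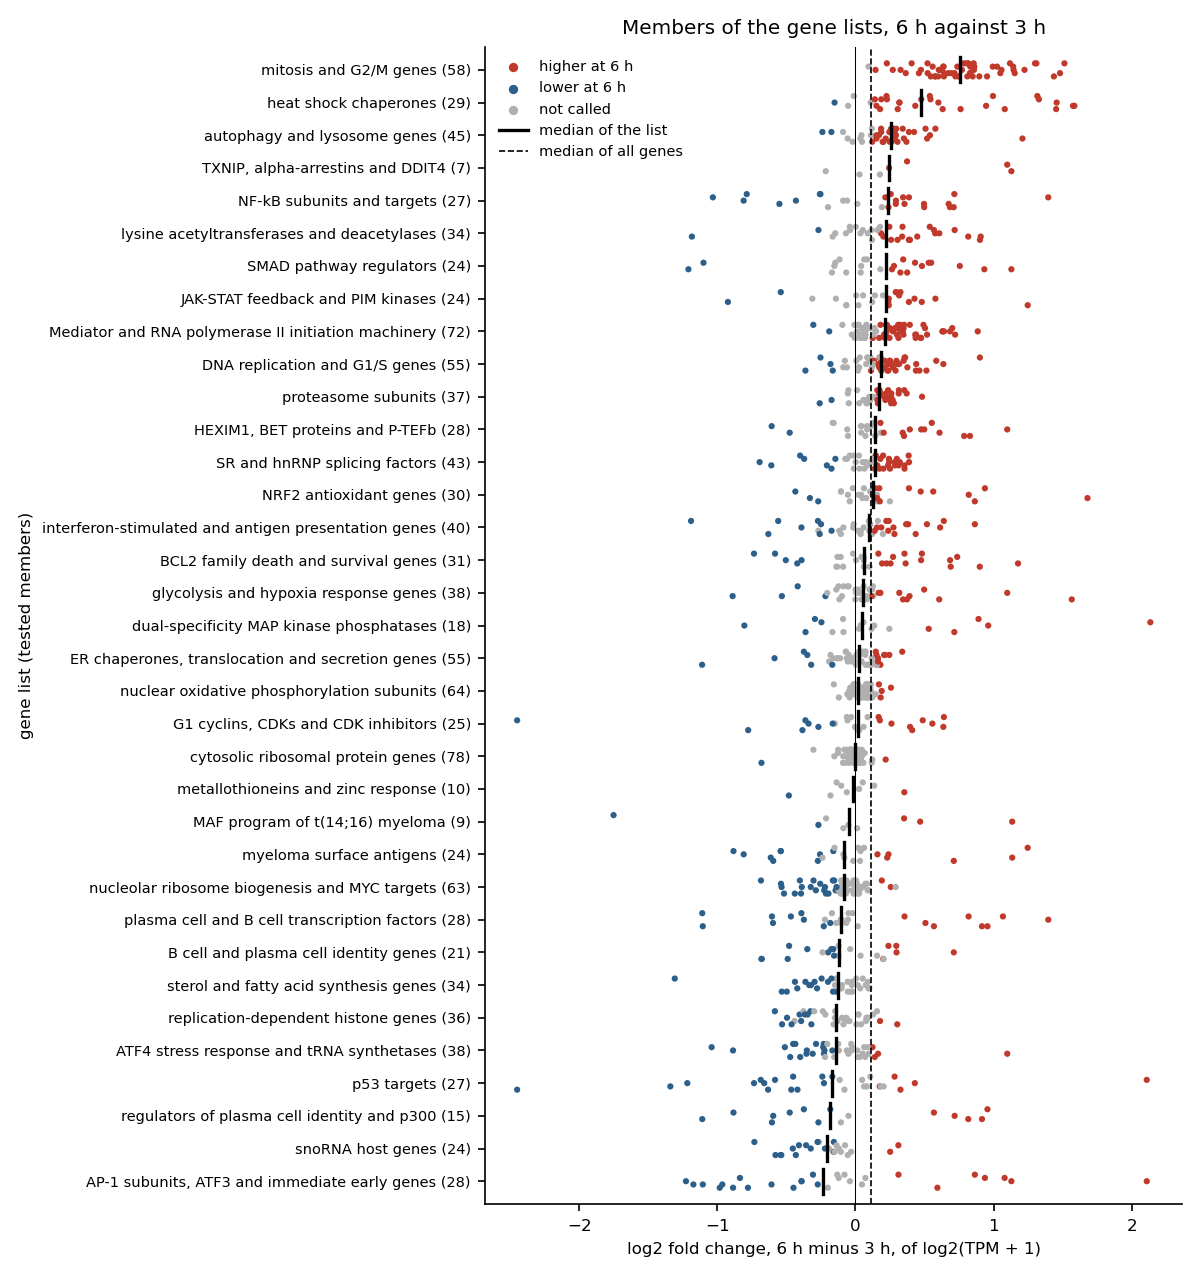
Log2 fold change, 6 h minus 3 h (x axis), of every tested member of the gene lists with at least 5 tested members, other than markers of other cell types; red and blue points are genes called higher and lower at 6 h, grey points are not called, black ticks are list medians and the dashed line is the median of all genes at 0.115. The medians run from -0.24 for AP-1 and immediate early genes (0.090 with spike-in scaling, where every median is above 0) to 0.76 for mitosis genes.

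The 2 deepest decreases on the log2(TPM + 1) scale were in genes that stood far above DMSO at 1 h. RRAD, a small GTPase of the Ras family, had 2.92, 3.46 and 2.96 TPM at 6 h, against 24.4, 24.5 and 25.3 TPM at 3 h (log2 fold change -2.65, SE 0.070, adjusted p = 4.23e-08). The cell cycle inhibitor p21 is the product of CDKN1A, which had 8.93, 9.31 and 9.67 TPM at 6 h, against 56.6, 53.8 and 55.4 TPM at 3 h (-2.45, SE 0.055, adjusted p = 2.92e-08). TPM levels of RRAD were thus 7.95-fold lower and those of CDKN1A 5.94-fold lower, with the libraries far apart. RRAD stood at 0.335 TPM with DMSO and 25.6 TPM at 1 h, and CDKN1A at 18.4 TPM with DMSO and 159 TPM at 1 h. CDKN1A at 6 h was thus below its DMSO level.

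Of 27 tested p53 targets, 14 were lower (13.2% of all genes were) and 5 higher, with a median of -0.17 that was -0.32 with median-ratio and 0.24 with spike-in scaling. TNFRSF10B, which encodes the death receptor DR5, had 5.46, 5.35 and 5.51 TPM at 6 h, against 13.8, 13.1 and 15.1 TPM at 3 h (-1.22). PHLDA3, an inhibitor of AKT, averaged 0.166 TPM at 6 h and 1.96 TPM at 3 h (-1.34), at levels where counting limits the precision. AEN, an exonuclease gene, fell by 0.63. BTG2 and RRM2B, an anti-proliferative gene and a ribonucleotide reductase subunit, rose by 2.11 and 0.43. AP-1 and immediate early genes were split, with 14 of 28 lower and 7 higher, beside 13.2% and 39.9% of all genes. Their median was -0.24, which was 0.090 with spike-in scaling. JUND, an AP-1 subunit, had 141, 144 and 155 TPM at 6 h, against 334, 320 and 339 TPM at 3 h (-1.17, SE 0.052, adjusted p = 5.80e-07). FOS, another subunit, averaged 2.07 TPM at 6 h and 5.58 TPM at 3 h (-1.10), and IER2 and GADD45B, an immediate early gene and a stress gene, fell by 0.96 and 0.78. CITED2, whose product binds p300 and CBP, went the other way, with 79.6, 79.8 and 82.9 TPM at 6 h, against 35.9, 37.4 and 39.7 TPM at 3 h (1.08, SE 0.053, adjusted p = 1.02e-06). Spike-in scaling ended the calls of AEN, IER2 and GADD45B.

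Other large decreases were in signalling and lineage genes. DEPTOR, an inhibitor of mTOR that is highly expressed in some myelomas, had 33.5, 34.6 and 35.8 TPM at 6 h, against 118, 115 and 124 TPM at 3 h (log2 fold change -1.75, SE 0.052, adjusted p = 7.52e-08). AFAP1L2, an adaptor of SRC signalling, averaged 7.95 ± 0.359 TPM at 6 h and 30.8 ± 2.13 TPM at 3 h (-1.83). BHLHA15, which encodes the secretory cell factor MIST1, had 54.2, 59.2 and 62.9 TPM at 6 h, against 176, 147 and 196 TPM at 3 h (-1.53, SE 0.098, adjusted p = 3.86e-06). With DMSO, DEPTOR stood at 182 TPM, AFAP1L2 at 56.0 TPM and BHLHA15 at 160 TPM. RGS16, a regulator of G protein signalling, fell by 1.61. P2RX7, an ATP-gated channel, averaged 2.47 TPM at 6 h and 8.77 TPM at 3 h. Decreases were also called in BAMBI, a decoy receptor of the TGF-beta family (-1.21), and the gene LBH (-1.23). The non-coding RNA gene MIR663AHG fell by 1.47. BACH2, a B cell repressor, averaged 0.349 TPM at 6 h and 1.90 TPM at 3 h (-1.10), and the deacetylase gene HDAC9 1.23 and 4.06 TPM in the same order (-1.18). The calls of these 10 genes held under every alternative in which they were tested.

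Each of the 12 largest increases was in a gene whose mean at 3 h was below that of DMSO. The ranking used the 3 h libraries themselves, so it favours genes with low values there. For HMOX1, 1 of the 12, the difference was within the spread, at 147 ± 4.43 TPM at 3 h and 151 ± 9.08 TPM with DMSO. DUSP5, which encodes a nuclear phosphatase of ERK, had 114, 122 and 127 TPM at 6 h, against 27.2, 25.4 and 27.7 TPM at 3 h (log2 fold change 2.14, SE 0.058, adjusted p = 4.23e-08). BTG2 had 120, 128 and 128 TPM at 6 h, against 27.9, 27.4 and 29.4 TPM at 3 h (2.11, SE 0.052, adjusted p = 3.55e-08). With DMSO DUSP5 stood at 145 TPM and BTG2 at 114 TPM, so both were close to those levels again by 6 h. TMCC2 averaged 19.8 ± 1.57 TPM at 6 h and 4.35 ± 0.589 TPM at 3 h (1.96), with 25.1 TPM in DMSO. TLR1, a receptor of bacterial lipoproteins, rose by 1.94, and BHLHE41, a transcriptional repressor, averaged 26.7 ± 2.26 TPM at 6 h and 6.54 ± 0.280 TPM at 3 h (1.87). BHLHE41 at 6 h was above its DMSO mean of 18.1 TPM. PSRC1, a spindle protein gene, rose by 1.79, EVI2B, a membrane protein gene of blood cells, by 1.70, GRB7, an adaptor of receptor kinases, by 1.68 and DEDD2, a death effector domain gene, by 1.64.

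Regulators of stress and growth signalling included further genes that were low at 3 h. TXNIP, which encodes an inhibitor of thioredoxin and glucose uptake, had 181, 183 and 193 TPM at 6 h, against 85.3, 82.8 and 85.3 TPM at 3 h (log2 fold change 1.13, SE 0.046, adjusted p = 4.26e-07), after 34.9 TPM at 1 h and 177 TPM with DMSO. DDIT4, an inhibitor of mTOR signalling, had 158, 163 and 171 TPM at 6 h, against 75.2, 71.7 and 81.1 TPM at 3 h (1.10), and IRF1, an interferon response factor, averaged 31.2 ± 1.45 and 11.2 ± 0.756 TPM in the same order (1.40). KLF10, a TGF-beta early response factor, rose by 1.13, KLF6 by 1.07 and CCR1, a chemokine receptor, by 1.13. IL6ST, which encodes the signalling subunit gp130 of the IL-6 receptor, had 24.0, 23.7 and 25.8 TPM at 6 h, against 9.68, 9.22 and 10.3 TPM at 3 h, with every library at 6 h higher, while IL6R, the ligand-binding subunit, fell by 0.54, a call lost with spike-in scaling.

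**Figure D4:**
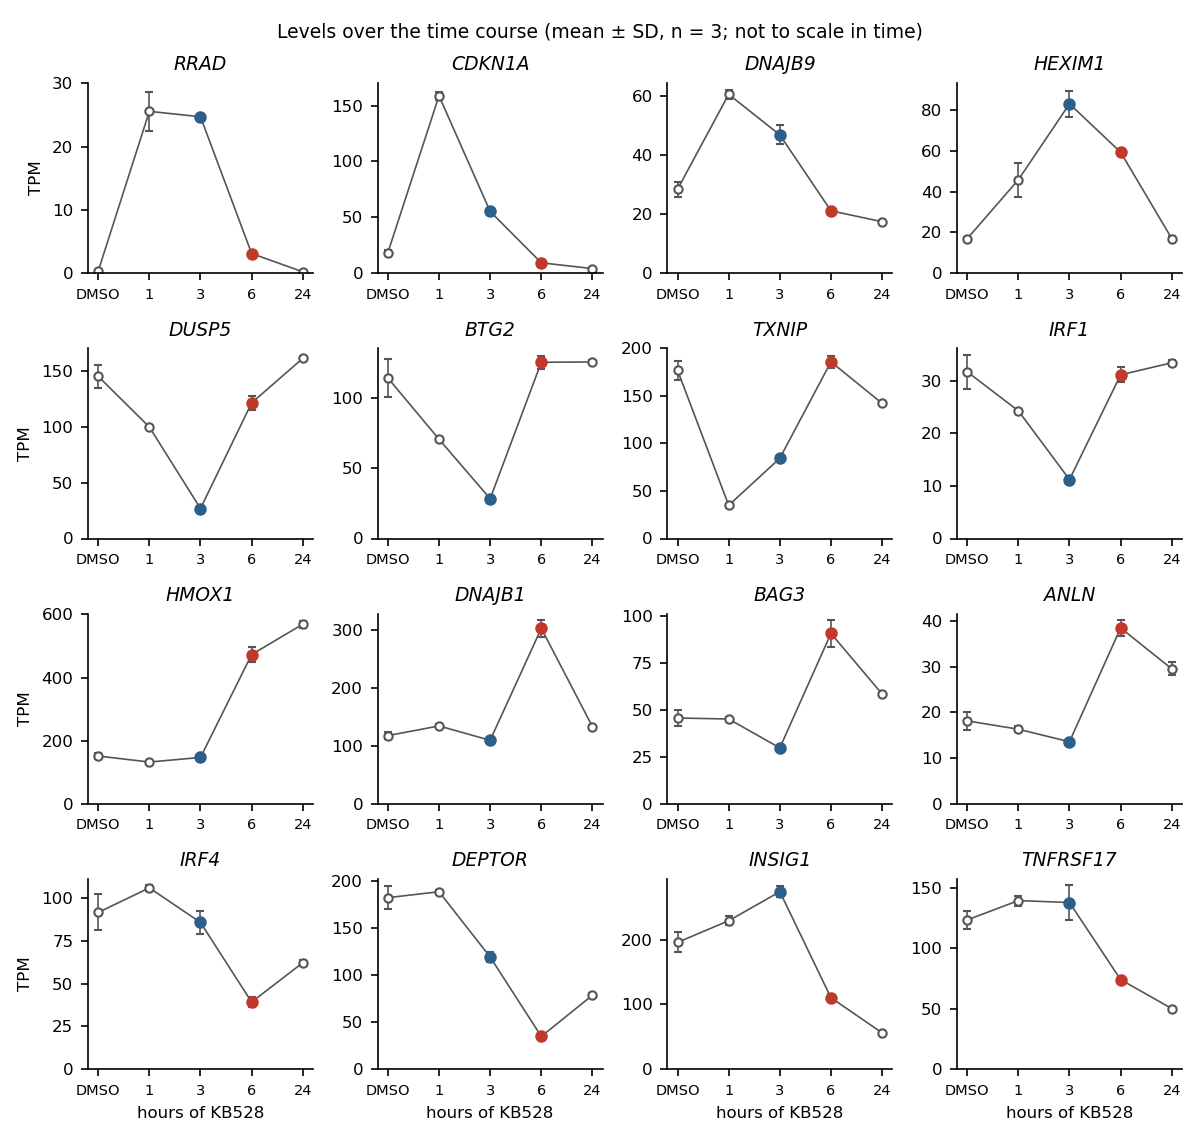
Mean TPM ± SD (y axis, from 0; n = 3) of 16 genes with DMSO and after 1, 3, 6 and 24 h of KB528 (x axis, evenly spaced and not to scale), with 3 h in blue and 6 h in red. CDKN1A is below its DMSO level by 6 h and RRAD, at 3.11 TPM against 0.335 TPM with DMSO, still above it, DUSP5 and BTG2 return to about their DMSO level, HMOX1, DNAJB1, BAG3 and ANLN exceed it, and IRF4, DEPTOR, INSIG1 and TNFRSF17 fall.

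In 2 comparisons that share no library with that of 6 h against 3 h, the same genes were set beside each other. This was added after the data were seen. At 1 h against DMSO 1187 genes were higher (9.89%) and 536 lower (4.47%). Of the 140 genes at least 2-fold higher at 6 h than at 3 h, 58 (41.4%) were lower at 1 h and 4 were higher. These 58 made up 10.8% of the genes lower at 1 h. Of the 105 genes at least 2-fold lower at 6 h, 55 (52.4%) were higher at 1 h, which is 4.63% of the genes higher there, and 5 were lower. At 24 h against DMSO 6418 genes were higher (53.5%) and 1715 lower (14.3%). Of the 140 genes 105 were higher at 24 h than with DMSO, 1.64% of those higher, and of the 105 genes 57 (54.3%) were lower, 3.32% of those lower. With median-ratio scaling of both comparisons 79 of the 140 were higher at 24 h, beside 36.8% of all genes, and 62 of the 105 lower, beside 27.6%.

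ATF4 targets had more members lower than higher with the deposited values. ER genes had more higher than lower, but most lay below the median of all genes. Of 38 ATF4 targets and tRNA synthetases, 16 were lower and 4 higher, beside 13.2% and 39.9% of all genes. Their median was -0.14 (-0.28 with median-ratio and 0.26 with spike-in scaling). Without 6 h replicate 3 or 3 h replicate 1 a single gene was higher, and without 6 h replicate 2 there were 2. ATF4, the stress factor itself, had 314, 325 and 330 TPM at 6 h, against 462, 463 and 456 TPM at 3 h (-0.51, SE 0.043, adjusted p = 1.89e-05). CHAC1, a glutathione-degrading enzyme, averaged 0.536 TPM at 6 h and 2.17 TPM at 3 h (-1.04), and ATF3, a stress-induced factor, 3.35 and 7.07 TPM (-0.89). The calls of ATF4 and ATF3 were lost with spike-in scaling. Of 55 genes of the endoplasmic reticulum (ER), 10 were higher and 6 lower, beside 39.9% and 13.2% of all genes. Their median was 0.025, against 0.115 for all genes, and 41 of the 55 lay below the median of all genes. Without 6 h replicate 2 or 3 or 3 h replicate 1 the higher genes numbered 6, 4 and 3 in turn. With median-ratio scaling 0 of the 55 were higher and 28 lower, beside 2844 and 3359 of all 12002 genes. DNAJB9, an ER co-chaperone, had 21.1, 21.4 and 20.9 TPM at 6 h, against 44.3, 50.4 and 45.7 TPM at 3 h (-1.11, SE 0.060, adjusted p = 1.60e-06), and HERPUD1, of ER-associated degradation, fell by 0.59, a call lost with spike-in scaling.

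Of 34 tested genes of sterol and fatty acid synthesis, 15 were lower at 6 h (13.2% of all genes were). In limma 0 were higher (39.9% of all genes were), also at an unadjusted p under 0.05. Every one of the 34 lay below the median of all genes. Their median was -0.12, and -0.28 with median-ratio and 0.28 with spike-in scaling. INSIG1, the ER protein that retains the sterol sensor SCAP, had 104, 111 and 116 TPM at 6 h, against 266, 275 and 283 TPM at 3 h (log2 fold change -1.31, SE 0.054, adjusted p = 4.26e-07), a fall of 2.49-fold in TPM. The pathway enzymes moved less. FDFT1, squalene synthase, fell by 0.44 and HMGCS1, HMG-CoA synthase, by 0.42, both lost with spike-in scaling. The letters TCACNCCAC or GTGGNGTGA of a sterol regulatory element, searched on both strands, stood in 1 of 27 promoters of the list, that of SREBF2 (0.094, not called), and in 1.10% of the promoters of tested genes. The list median relative to DMSO was 0.085, -0.082, -0.21 and -0.58 over the 1, 3, 6 and 24 h samplings. Without 3 h replicate 2 or 3, 1 member was called higher.

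Nucleolar genes and snoRNA hosts, which serve ribosome production, had more members lower than higher with the deposited values, and 2 higher and 0 lower in each list with spike-in scaling. Of all genes 13.2% were lower and 39.9% higher as deposited. With spike-in scaling 4417 of all 12002 genes were higher and 157 lower, and their median was 0.49. Both lists thus stayed below the share higher and the median of all genes under that scaling. Of 63 nucleolar and MYC target genes, 21 were lower and 2 higher, with a median of -0.085 (-0.24 with median-ratio and 0.33 with spike-in scaling). POLR1C, a subunit of RNA polymerases I and III, averaged 79.6 ± 3.57 TPM at 6 h and 128 ± 5.30 TPM at 3 h (-0.68, SE 0.053, adjusted p = 1.26e-05), and NOP56, a core protein of snoRNPs, averaged 411 and 558 TPM in the same order (-0.44). Of 24 snoRNA host genes, 13 were lower and 2 higher (median -0.21). SNHG15 had 117, 118 and 114 TPM at 6 h, against 183, 205 and 194 TPM at 3 h (-0.73), and SNHG1 334, 330 and 347 TPM at 6 h, against 470, 517 and 482 TPM at 3 h (-0.54). Spike-in scaling ended the calls of these 4 genes. Of the 2 nucleolar genes higher, 1 was left without 6 h replicate 1 or 2 or 3 h replicate 2 and 0 without 6 h replicate 3 or 3 h replicate 1. Of the 2 host genes higher, 1 was left without 6 h replicate 1 or 3 or 3 h replicate 1 or 2. The host median was -0.35 with median-ratio and 0.21 with spike-in scaling. Of 193 small nucleolar RNA genes, 129 were lower and 3 higher, with a median of -0.57 that was -0.21 after the length correction. RNAs this short are uncertain in mRNA libraries. Replication-dependent histone genes, whose messages lack poly(A), had 10 of 36 lower and 2 higher (1 without 6 h replicate 2 or 3 or 3 h replicate 1), with a median of -0.14 that was 0.20 with spike-in scaling.

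Few housekeeping genes were called with the deposited values, beside 53.1% of all genes. Of 78 cytosolic ribosomal protein genes, 1 was higher and 1 lower, with a median of -0.00075. Of 64 nuclear oxidative phosphorylation genes, 4 were higher and 0 lower (1 lower at an unadjusted p under 0.05), with a median of 0.021. The ribosomal gene that was lower was RPL36A (-0.68), a call lost with spike-in scaling, and 75 of the 78 ribosomal and 57 of the 64 oxidative phosphorylation genes lay below the median of all genes. Their calls moved with single libraries. Without 6 h replicate 1, 3 ribosomal genes were higher, and without 3 h replicate 2, 20 oxidative phosphorylation genes and 4 ribosomal genes were higher. Without 3 h replicate 1 there were 1 and 0, without 6 h replicate 2 or 3 there was 1 oxidative phosphorylation gene higher, and without 3 h replicate 3 there were 2 such genes higher, 1 such gene lower and 3 ribosomal genes lower. With median-ratio scaling 0 were higher in either list and 11 and 10 were lower, beside 2844 higher and 3359 lower of all 12002 genes. With spike-in scaling the medians were 0.41 for ribosomal and 0.43 for oxidative phosphorylation genes, below the 0.49 of all genes.

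Lists of the transcription machinery ranged from a share higher above that of all genes, 39.9% as deposited, to one near it. For the other scalings, the counts over all 12002 genes were 2844 higher and 3359 lower with median-ratio scaling. After the length correction they were 3145 and 3053 of 11698 genes. Of 72 Mediator and RNA polymerase II initiation genes, 41 were higher and 2 lower (1 without 6 h replicate 1 or 2 or 3 h replicate 1 or 3), with a median of 0.21 (0.061 with median-ratio scaling, 24 higher and 8 lower). TAF5, a TFIID subunit, averaged 9.67 TPM at 6 h and 4.78 TPM at 3 h (log2 fold change 0.89), and the Mediator gene MED30 29.6 and 17.6 TPM in the same order (0.72). Of 34 acetyltransferases and deacetylases, 19 were higher and 2 lower (median 0.22; 15 and 7 with median-ratio scaling), and the 2 lower were HDAC9 and SIRT1, whose value turned positive with spike-in scaling. The nuclear receptor coactivators NCOA2, NCOA1 and NCOA3 rose by 0.91, 0.90 and 0.61 and KAT7, the catalytic subunit of the HBO1 complex, by 0.58. Without 3 h replicate 2, 4 genes of this list were lower. The list of HEXIM1, BET proteins and P-TEFb also held other genes, such as BRD8. Of its 28 genes, 12 were higher and 2 lower (4 without 3 h replicate 2), the lower being HEXIM1 and BRD2. Their median of 0.14 was near that of all genes and was -0.015 with median-ratio scaling, with 9 higher and 7 lower. BRD8, a bromodomain subunit of the TIP60 complex, had 51.8, 55.3 and 58.1 TPM at 6 h, against 24.8, 24.0 and 26.8 TPM at 3 h (1.10, SE 0.063, adjusted p = 2.18e-06). BRD2, a BET protein, averaged 25.6 TPM at 6 h and 39.5 TPM at 3 h (-0.61), a call lost with spike-in scaling. Of 43 SR and hnRNP splicing factors, 22 were higher (13 without 3 h replicate 1) and 7 lower. The counts were 6 higher and 15 lower with median-ratio scaling and 9 and 14 after the length correction, where those of all genes shifted too. SRSF6 had 142, 147 and 152 TPM at 6 h, against 233, 237 and 244 TPM at 3 h (-0.69), and SRSF5 fell by 0.61, both lost with spike-in scaling, while SRSF11 rose by 0.32.

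Signalling and survival genes split, where 39.9% of all genes were higher and 13.2% lower as deposited. The median-ratio counts are to be read beside 2844 higher and 3359 lower of all 12002 genes under that scaling. Of 27 NF-kB subunits and targets, 15 were higher and 7 lower (median 0.24, and 11 and 10 with median-ratio scaling). TRAF2 and CFLAR, an adaptor and an inhibitor of caspase 8, rose by 0.68 and 0.72, while CD83, an activation marker, fell by 1.03 and ICAM1, an adhesion receptor, by 0.81. Of 31 BCL2 family and death genes, 14 were higher and 5 lower, beside 39.9% and 13.2% of all genes. Their median of 0.062 was below that of all genes, and median-ratio scaling gave 10 higher and 11 lower. BMF, a BH3-only gene, averaged 5.01 TPM at 6 h and 1.66 TPM at 3 h (1.18), and the BH3-only genes BBC3 and PMAIP1 fell by 0.73 and 0.58. Of 25 G1 cyclins, kinases and inhibitors, 9 were higher and 7 lower (6 and 12 with median-ratio scaling). CDKN1B, which encodes p27, had 107, 108 and 112 TPM at 6 h, against 66.3, 69.9 and 73.0 TPM at 3 h (0.64), opposite to CDKN1A. CCND3 rose by 0.56 and CCND1 fell by 0.78. Among 18 dual-specificity phosphatases 5 were higher and 4 lower (5 and 7 with median-ratio scaling), with DUSP4 and DUSP6 up by 0.96 and 0.89 and DUSP2 down by 0.80 (log2 fold change -0.80). Spike-in scaling ended the calls of ICAM1, BBC3, PMAIP1, CCND1 and DUSP2.

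Counts were mixed in other lists, to be read beside 39.9% of all genes higher and 13.2% lower as deposited. Those with median-ratio scaling are to be read beside 2844 higher and 3359 lower of all 12002 genes. For the length correction the all-gene counts were 3145 and 3053 of 11698. Plasma cell and B cell transcription factors had 8 of 28 higher and 9 lower, with a median of -0.10 that was 0.27 with spike-in scaling. JAK-STAT genes had 12 of 24 higher and 2 lower (4 lower without 6 h replicate 3), SOCS1, a feedback inhibitor, falling by 0.92. The JAK-STAT counts were 8 and 5 with median-ratio scaling and 7 and 6 after the length correction. SMAD pathway genes had 12 of 24 higher and 2 lower (4 lower without 3 h replicate 2), the lower being BAMBI and ID1, at -1.21 and -1.10. The SMAD counts were 10 and 5 with median-ratio scaling and 9 and 6 after the length correction. Interferon and antigen presentation genes had 15 of 40 higher (9 without 6 h replicate 3) and 8 lower (5 without 6 h replicate 1). Their share higher was near the 39.9% of all genes, and the counts turned to 7 and 12 with median-ratio scaling and to 9 and 13 after the length correction. SAMD9L, an antiviral gene, rose by 0.86 and OAS1, an oligoadenylate synthetase, fell to 2.49 TPM at 6 h, against 6.95 TPM at 3 h (-1.19). Glycolysis and hypoxia genes had 11 of 38 higher and 4 lower, which turned to 7 and 15 with median-ratio scaling and to 7 and 11 after the length correction. SLC2A3, which encodes the glucose transporter GLUT3, rose by 1.57, and NDRG1, a hypoxia-induced gene, fell by 0.89, a call lost with spike-in scaling. The MAF program list had 3 of 9 higher and 2 lower, metallothioneins and zinc response genes 1 of 10 higher (2 without 3 h replicate 3) and 1 lower (2 without 3 h replicate 2), and the TXNIP and alpha-arrestin list 4 of 7 higher and 0 lower (1 without 6 h replicate 3 or 3 h replicate 2). Myeloma surface antigens had 6 of 24 higher (3 without 6 h replicate 2 or 3) and 9 lower. B cell and plasma cell identity genes had 5 of 21 higher (3 without 6 h replicate 2 or 3) and 9 lower (5 without 6 h replicate 2). CXCR4, the chemokine receptor that holds plasma cells in bone marrow, averaged 53.6 ± 1.53 TPM at 6 h and 32.4 ± 2.09 TPM at 3 h (0.71), and PTPN6, which encodes the phosphatase SHP-1, 14.4 ± 0.410 and 23.7 ± 0.228 TPM in the same order (-0.68, lost with spike-in scaling).

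**Figure D5:**
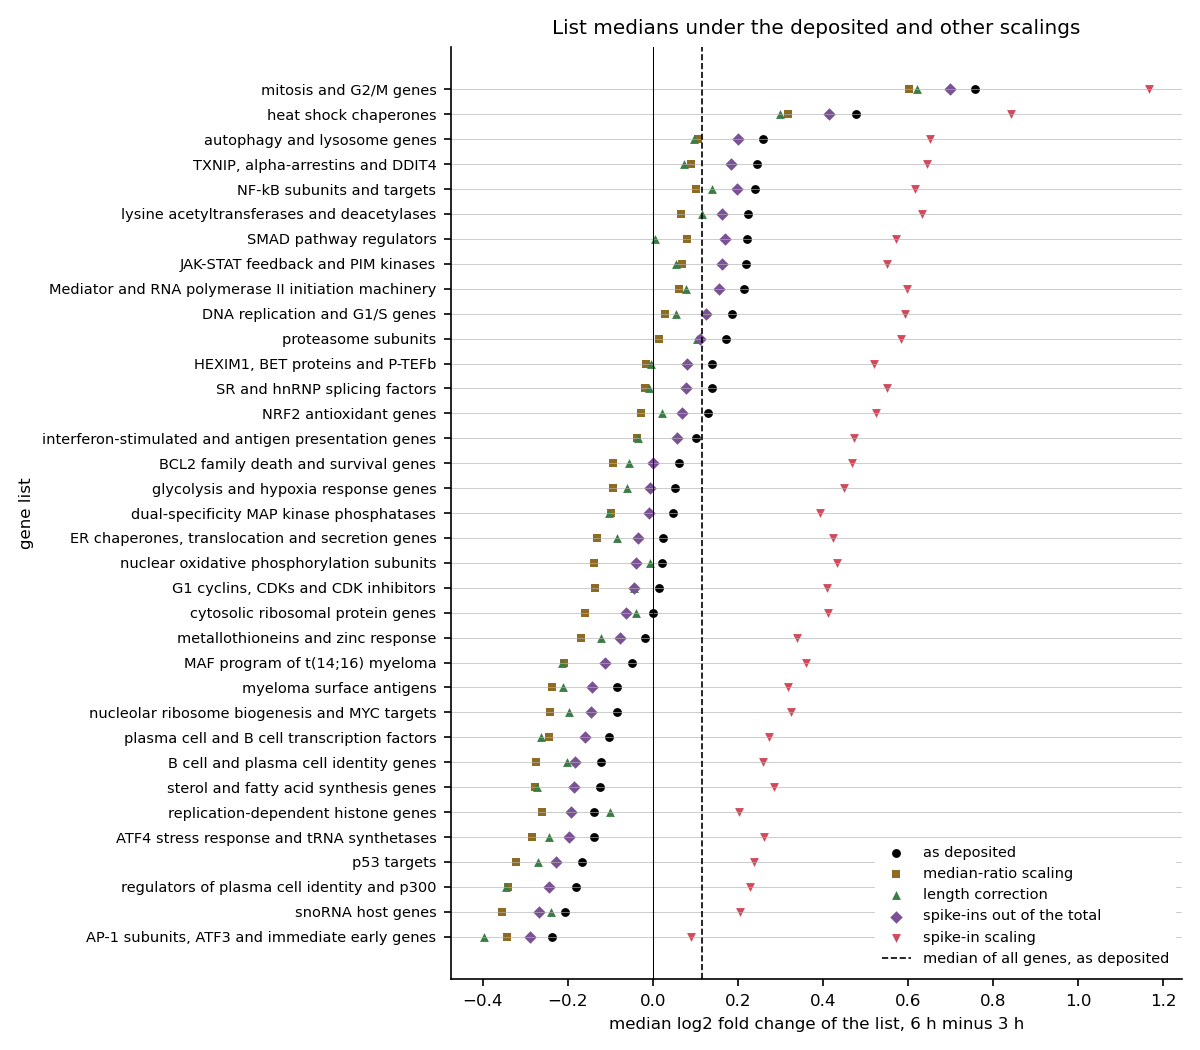
Median log2 fold change of each gene list, 6 h minus 3 h (x axis), with the deposited values (black circles) and 4 other scalings; the dashed line is the median of all genes as deposited, 0.115. Spike-in scaling puts every list median above 0, from 0.090 for AP-1 and immediate early genes, and 0.76 as deposited stands against 1.17 for mitosis genes.

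Markers of other cell types were low apart from a few genes. The summed level of 20 epithelial markers was 329.8 to 351 TPM at 6 h and 372.3 to 377.1 TPM at 3 h, most of it EPCAM (119 and 116 TPM) and KRT18 (109 and 124 TPM), and 8 of 11 tested members were lower at 6 h (5 without 6 h replicate 1 or 2 or 3 h replicate 1). The 15 myeloid markers summed to 129.1 to 140.2 TPM at 6 h and 121.8 to 131.7 TPM at 3 h, mostly CD33 and CD68. The 15 T and NK cell markers in the table summed to 5.70 to 6.68 TPM at 6 h and 7.95 to 8.78 TPM at 3 h, with CD3D, CD2 and KLRD1 at 0 in every library. The 12 fibroblast markers summed to 2.38 to 2.73 TPM at 6 h and 2.76 to 3.75 TPM at 3 h. Their part in the results was not tested.

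Transcript length moved with the change. The tenth of genes with the shortest transcripts had a median log2 fold change of 0.023 and the tenth with the longest 0.24, and 55.4% of the longest and 18.4% of the shortest were higher. After the length correction the median of all genes was 0.00074. Long non-coding RNA genes had 112 of 506 higher and 90 lower (median 0.011), and ZNF genes, which encode zinc finger proteins, had 144 of 408 higher and 38 lower (median 0.11).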

How the data were processed

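RNA was purified with a Zymo kit and made into stranded mRNA libraries with NEB reagents, per the labels' protocols. The authors deposited 1 table of TPM values, 26456 rows by 15 columns, each column summing to 1000000 with 92 ERCC rows included. STAR, featureCounts, FastQC, MultiQC and the build hg19 are named per the submitters' processing notes. Their versions and settings, and when the spike-ins were added, are absent from the labels. As TPM already divides by length and library total, a change in a few abundant RNAs moves all other values, and count models were not used.

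For testing, a pseudocount of 1 was added to the deposited TPM, log2 was taken, and limma 3.58.1 was run under R 4.3.3 (lmFit, eBayes with a variance trend) on the 3 libraries at 6 h and the 3 at 3 h, with Benjamini-Hochberg adjustment over 12002 genes and a threshold of 0.05. Folds on this scale understate the change of low genes. The 2 comparisons with DMSO were fitted the same way on their own 6 libraries. The members and the 39 gene lists were chosen with earlier results of these data known. Lists are described by counts and medians. Named genes were drawn from 15 regulators, the 12 largest increases and decreases among called genes of at least 5 TPM whose libraries do not overlap (small RNA and histone genes left out), up to 4 members per list in its main direction and 2 in the other by smallest p, and the 5 most abundant called genes each way, 218 in all. PLK1, CDC20, MAD2L1, CHORDC1, HSPA1A, HSPA6, HSF1, DNAJA1, DNAJB6, SERPINH1, SREBF2, EPCAM, CD68 and the T cell markers at 0 were added after their values were seen. The test was run on simulated data of 12002 genes, of which 200 were changed, with independent noise. It recovered 49 of 50 genes changed 1.5-fold and 41 of 50 changed 1.25-fold, with 6 false among 196 calls. Far more genes were called in the real libraries, and no library-wide shift was simulated. These numbers therefore do not give the share of false calls in the real comparison. Alternatives, 18 in all, comprised the pseudocount 0.1, the filter at 5 TPM, no filter, 5 scalings, no variance trend, 12 or all 15 libraries in the fit, the replicate block and each library left out. Promoters came from RefSeq (GRCh38.p14), and transcript lengths, found for 97.5% of tested genes, from the GENCODE transcripts. Python 3.11.15, numpy 2.4.6, pandas 2.3.3 and matplotlib 3.10.9 made tables and figures.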

Additional observations from a re-analysis of the deposited data

How the results depend on the processing

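Direction and call held for most of the 218 named genes under each of the 18 alternatives, the fewest being 134 with spike-in scaling. The count of genes higher at 6 h was 2844 with median-ratio scaling and 3145 with the length correction, against 4787, and that of lower genes 3359, 3053 and, with spike-in scaling, 157, against 1584. At least 2-fold higher were 241 genes with a pseudocount of 0.1, 79 with median-ratio and 630 with spike-in scaling, against 140. At least 2-fold lower were 181 with a pseudocount of 0.1, 29 with spike-in scaling and 69 with spike-ins and small RNA genes out of the total, against 105. With 1 library left out the counts were 3736 to 5005 higher, 1226 to 1722 lower, 120 to 169 at least 2-fold higher and 92 to 111 at least 2-fold lower.

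The sign turned for 30 gene values. With spike-in scaling the log2 fold changes, negative as deposited, were 0.23 for MYC, 0.039 for XBP1, 0.14 for CCND2, 0.056 for DERL3, 0.11 for DUSP23, 0.059 for MTHFD2, 0.069 for MSMO1, 0.10 for PSMB8, 0.20 for PSMB9, 0.16 for CDC6, 0.031 for CCNE1, 0.26 for HSPB1, 0.12 for SIRT1, 0.097 for GTF2B, 0.20 for MED26, 0.15 for ATG16L1, 0.24 for CTSZ, 0.078 for MAFK, 0.085 for CLDN3, 0.11 for KRT86, 0.23 for KRT18, 0.065 for TAGLN, 0.26 for JCHAIN, 0.24 for MZB1, 0.23 for MAL and 0.30 for MIR5047. With the length correction XPOT was at -0.038, CANX at -0.010 and MIR5047 at 0.25, and with median-ratio scaling TUBB4B at -0.011. The median-ratio, spike-in and total-based scalings multiply all values of a library by 1 factor, while the length correction moves genes by transcript length. Which is closest to the cells was not tested.

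The replicate number as a block gave 5139 higher and 1721 lower genes, so the replicate block left both counts within 1.5 times. Libraries with the same number at 6 h and 3 h correlated in their deviations with r of -0.099, 0.064 and 0.13, so the numbers were not taken as pairs. The call of 4 named genes (HSPB1, TUBB4B, JCHAIN and MIR5047) was lost under the block. Depth limits genes near 1 TPM most, where a difference may rest on few reads.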
